A study of Homo sapiens with 4 samples.

Results

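The inflammatory cytokine and chemokine mRNAs of MDA-MB-231 cells were examined in RIP-seq of the m6A reader YTHDC1. The genes were chosen by name, as 10 cytokines whose mRNAs are short-lived (CXCL1, CXCL2, CXCL3, CXCL8, CCL20, IL6, LIF, IL1A, IL1B and CSF2), and every listed transcript of them was kept. Of the 10 genes, 8 had a row in the deposited table, with 15 transcripts in all, among 75165 transcripts of 20298 genes. IL1A and CCL20 were not listed. MDA-MB-231 is a triple-negative breast cancer cell line of mesenchymal type. In all 4 libraries the cells carried a lentiviral 3x flag-YTHDC1 construct (MOI of 4, then puromycin at 2 μg/ml for 4 days) that the plasmid list gives as driven by a CMV promoter, and no cells without it were compared. After 3 UV exposures and isolation of nuclei, 2 libraries were made from RNA recovered with an anti-Flag antibody (IP, from lysate with 500 μg of protein and 5 μg of antibody) and 2 from the lysate itself (input, 50 μg of protein). The design text calls the replicates biological.

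The measurement available for each transcript was the authors' mean normalized count, which is 1 value over the 2 IP and 2 input libraries together. Libraries cannot be looked at singly, which leaves their depths and the spread between replicates unknown, and no error can be given. The deposited IP-against-input comparison is the authors' own result and was not used here, so the values below describe how far each cytokine mRNA was covered by reads in the nuclear RNA of the 4 libraries as a pool, and say nothing of its recovery with YTHDC1. The values are not divided by transcript length. A total is therefore the read support of a gene, and a difference between genes is not a difference in mRNA level. How far IP or input reads make up a total, a rank or a share cannot be told from the pool.

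As background, cytokine and chemokine genes are switched on by NF-κB and AP-1 family transcription factors, and many of their mRNAs carry AU-rich elements that bind decay factors such as ZFP36. CXCL1, CXCL2, CXCL3 and CXCL8 attract neutrophils, mainly through the receptor CXCR2 and, for CXCL8, also CXCR1, and CCL20 attracts cells with the receptor CCR6. IL-6 and LIF signal through the shared receptor chain gp130, encoded by IL6ST, and on to JAK kinases and STAT3. IL1A and IL1B encode interleukin 1, which itself induces the other members, and CSF2 encodes the myeloid growth factor GM-CSF. YTHDC1 is the nuclear reader of m6A, a methyl mark on RNA, and takes part in splicing, export and decay of marked RNA.

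In the RefSeq annotation of GRCh38.p14, 4 of the genes lie in a cluster on chromosome 4 that spans 359 kb, with CXCL8 at chr4:73740569-73743716, CXCL1 at chr4:73869393-73871308, CXCL3 at chr4:74036589-74038689 and CXCL2 at chr4:74097040-74099195. IL1A (chr2:112773925-112784493) and IL1B (chr2:112829751-112836779) lie near each other on chromosome 2, which also holds CCL20 (chr2:227813842-227817556). CSF2 lies at chr5:132073789-132076170, IL6 at chr7:22727200-22731998 and LIF at chr22:30240453-30246759. The files' build is GRCh38 by the submitters' processing notes.

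CXCL1, CXCL2 and CXCL3 are close paralogs, and the promoters of RefSeq, 250 bases before to 50 after each start, show how alike they are. Over an alignment of these promoters, 82.5% of positions were identical between CXCL1 and CXCL3, 73.8% between CXCL3 and CXCL2 and 71.9% between CXCL1 and CXCL2. The CXCL8 promoter was 45.2% identical to that of CXCL1, the lowest of all pairs aligned. Pairs that are not paralogs had similar values, such as CSF2 and IL6 at 45.6% and IL1B and IL6 at 52.4%. No promoter of LIF was matched by symbol, so none was searched. Those of the other 9 of the 10 genes were matched. Both strands of each were searched for the κB motif GGGANTTTCC, a form of the NF-κB site that was chosen on these promoters, as the pattern with at most 1 open position that most of them held. It was found in 4 of the 9 (CXCL1, CXCL2, CXCL3 and IL6), a count that the choice itself fixed, and in 196 of all 35116 promoters (0.558%). The looser form GGGNNNNNCC, which takes in every match of the first, was found in 7 of the 9 and in 58.7% of all promoters, so it says little. The 4 stricter matches are printed 5′ to 3′ on the strand of the gene, with 10 bases on each side and the match in capitals, because they show the stretch that the 3 paralogs share and IL6 differs from.
CXCL1 (chr4:73869304-73869333, + strand): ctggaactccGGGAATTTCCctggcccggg
CXCL3 (chr4:74038749-74038778, - strand): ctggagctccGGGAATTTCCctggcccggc
CXCL2 (chr4:74099254-74099283, - strand): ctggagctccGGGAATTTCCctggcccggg
IL6 (chr7:22727117-22727146, + strand): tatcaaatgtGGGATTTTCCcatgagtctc
The match began 79 bases before the start in CXCL1 and CXCL3, 78 in CXCL2 and 73 in IL6. A match is a stretch of letters and not a measured site, and the RIP-seq values give no reading of NF-κB.

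The IL-6 family members had the most reads. LIF, which encodes a cytokine that signals through gp130, had 2 listed transcripts, both protein-coding. LIF-201 (ENST00000249075.4) had a mean normalized count of 1396, above 94.8% of all transcripts, and LIF-202 (ENST00000403987.3) had 167. LIF-201 thus held 89.3% of the gene's count. The LIF total of 1563 lay above those of 80.7% of all genes and made up 74.9% of the summed count of the 8 listed genes.

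IL6, which encodes the inflammatory cytokine interleukin 6, had 4 listed transcripts, the most of the 8 genes, of 2 types. The leading one, IL6-202 (ENST00000401630.7), is protein-coding and had a mean normalized count of 144. A second protein-coding transcript, IL6-207 (ENST00000426291.5), had 68.5. The retained-intron transcript IL6-209 (ENST00000485300.1), which keeps intron sequence in the RNA, lay between them at 79.3. The other retained-intron transcript, IL6-208 (ENST00000464710.1), was the lowest of all 15 at 4.97, which is a sum of 19.9 normalized counts over the 4 libraries. No single IL6 transcript held more than 48.5% of the gene total of 296, and 24.3% of the 1640 coding genes with 4 listed transcripts had a lower leading share. The total lay above those of 53.7% of all genes and 36.5% of coding genes.

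The neutrophil-attracting chemokines had few reads. Their 7 transcripts all lay below the median of all transcripts, which was 44.2, and the 4 genes together came to 112, or 5.39% of the members' summed count. CXCL2 had the largest total of the 4, at 56.5, made up of the protein-coding CXCL2-202 (28.8), the processed transcript CXCL2-201 (16.3) and the retained-intron transcript CXCL2-203 (11.4). A processed transcript is, in the GENCODE annotation, an RNA without an open reading frame. CXCL1 had a total of 33.3, with 23.1 in the protein-coding CXCL1-201 and 10.2 in the processed transcript CXCL1-202. CXCL3 was listed by the processed transcript CXCL3-202 alone, at 13.7, and no protein-coding transcript of CXCL3 was listed. CXCL8, which encodes interleukin 8, had 1 protein-coding transcript at 9.002, a sum of 36.0 normalized counts over the 4 libraries.

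As CXCL1, CXCL2 and CXCL3 are paralogs, RSEM, which divides a read that fits several transcripts by a statistical estimate, could have moved reads among them. Their single values are therefore uncertain. The split of a gene's count among its own transcripts, in every member, is an estimate of the same kind. The counts and shares of single transcripts and transcript types are thus estimated, with no error available. How many of their reads fit more than 1 of the 3 genes was not tested.

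The remaining cytokines had 1 listed transcript each, all protein-coding. CSF2-201 had a mean normalized count of 108, and CSF2 lay above 41.0% of all genes and 22.3% of coding genes. IL1B-201 had 8.37, the lowest gene total among the 8, above 10.2% of all genes and 3.94% of coding genes. IL1A and CCL20 had no row and are given no value or limit. The authors kept only transcripts that passed a minimum number of reads.

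**Figure D1:**
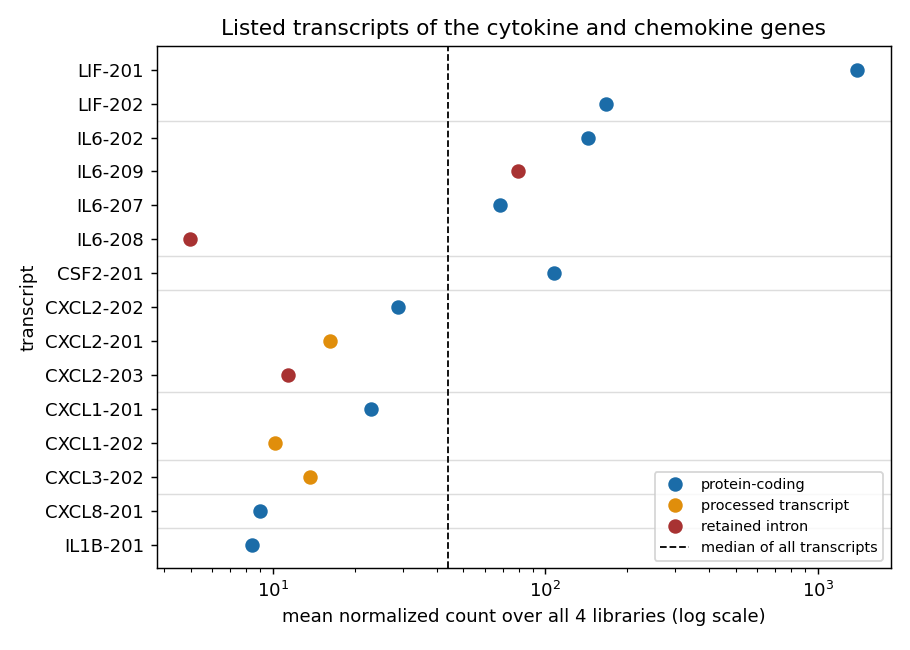
Mean normalized count over all 4 libraries, on a log scale, of each of the 15 listed transcripts, 1 point per transcript, coloured by transcript type and grouped by gene in the order of the gene totals. The dashed line is the median of all 75165 transcripts (44.2); the 6 points to its right belong to LIF, IL6 and CSF2, and all chemokine transcripts lie to its left.

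The listed members were thinly covered beside coding genes in general. Of the 8, 7 had a total below the median of all 14050 coding genes, which was 588, LIF being the exception, and the median of the 8 was 44.9. Ranked among coding genes rather than all genes, LIF lay above 72.6%, IL6 above 36.5%, CSF2 above 22.3%, CXCL2 above 16.0%, CXCL1 above 12.2%, CXCL3 above 6.65%, CXCL8 above 4.34% and IL1B above 3.94%. A total grows with the number of listed transcripts and with transcript length, so each gene was also set beside coding genes with as many listed transcripts. Among the 2013 with 2 listed transcripts, LIF lay above 85.8% and CXCL1 above 17.4%. Among the 1902 with 3, CXCL2 lay above 12.3%, and among the 1640 with 4, IL6 lay above 33.4%. Among the 2568 coding genes with 1 listed transcript, CSF2 lay above 63.3%, CXCL3 above 33.02%, CXCL8 above 23.3% and IL1B above 21.4%. Beside genes with equal numbers of listed transcripts, LIF and CSF2 thus lay in the upper part of the range and the other 6 in the lower.

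The transcript types differed from gene to gene. In 4 of the 8 genes (50%) a single transcript was listed, against 18.3% of coding genes. Coding genes with 1 listed transcript had a median total of 38.2, against 588 over all coding genes. The members' share was not set beside that of genes with like totals. Of the 15 transcripts, 9 were protein-coding, 3 retained-intron and 3 processed transcripts. Over the transcripts of all coding genes these types made up 59.6%, 17.2% and 13.2%. None of the 15 was annotated as subject to nonsense-mediated decay, which made up 9.86% of the transcripts of coding genes, so that few would be found among 15. By counts, protein-coding transcripts held 93.5% of the members' sum, against 87.6% over all coding genes, and retained-intron transcripts held 4.58%, against 4.16%. Processed transcripts held 1.93%, against 4.02%. The members' sums are mostly LIF, so the genes are described one by one.

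IL6 and CXCL2 were the members with a listed retained-intron transcript. The type is a label of the annotation, and whether its reads came from RNA not yet spliced in the nuclei was not tested. In IL6 the 2 retained-intron transcripts held 84.3 of the total of 296, or 28.4%, nearly all of it in IL6-209. In CXCL2 the share was 20.2%. Among the 11482 coding genes with at least 2 listed transcripts, 5301 (46.2%) listed a retained-intron transcript. Its share in these had a median of 5.72% and quartiles of 1.94% and 16.1%, so IL6 lay above 86.6% of them and CXCL2 above 79.5%. The share was larger among genes with totals like theirs. Among the 1164 such genes with totals within 2-fold of that of IL6 the median was 8.68%, and IL6 lay above 83.8%. Among the 296 with totals within 2-fold of that of CXCL2 the median was 22.3%, and CXCL2 lay above 42.9%. Beside genes of like coverage, IL6 was therefore still in the upper part of the range and CXCL2 near its middle.

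**Figure D2:**
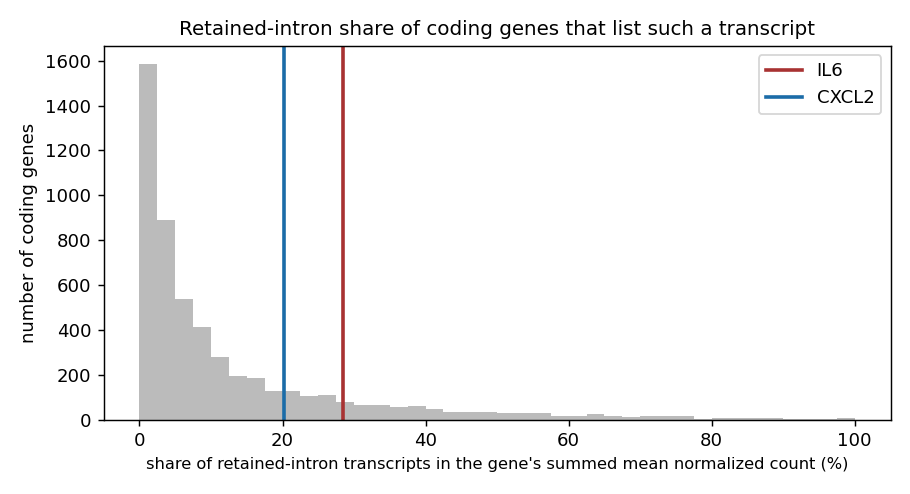
Number of coding genes by the share, in percent, that retained-intron transcripts held in the gene's summed mean normalized count, for the 5301 coding genes with at least 2 listed transcripts that list such a transcript. The vertical lines mark IL6 (28.4%) and CXCL2 (20.2%), both to the right of the bulk of the genes, whose median was 5.72%. Among genes with totals within 2-fold of that of IL6 the median was 8.68%, and of that of CXCL2 22.3%.

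Processed transcripts were seen in the 3 paralogous chemokines alone among the members, with 30.7% of the count of CXCL1, 28.8% of that of CXCL2 and 100% of that of CXCL3. Each share is taken over the gene's listed transcripts, and that of CXCL3 rests on 1 transcript at 13.7. Any transcript removed for few reads is not in the total. A coding gene without any listed protein-coding transcript, as CXCL3, was uncommon, at 429 of 14050 (3.05%), and among coding genes with 1 listed transcript it was 306 of 2568 (11.9%). Protein-coding transcripts held 71.6% of IL6, 69.3% of CXCL1 and 51.0% of CXCL2, all below the median of 90.7% over coding genes with at least 2 listed transcripts. Of those genes, 26.3% had a lower share than IL6, 24.5% than CXCL1 and 13.2% than CXCL2. The protein-coding share of LIF was 100%. Neither the processed nor the protein-coding share was set beside that of genes with like totals. How many coding genes list a processed transcript was not counted.

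**Figure D3:**
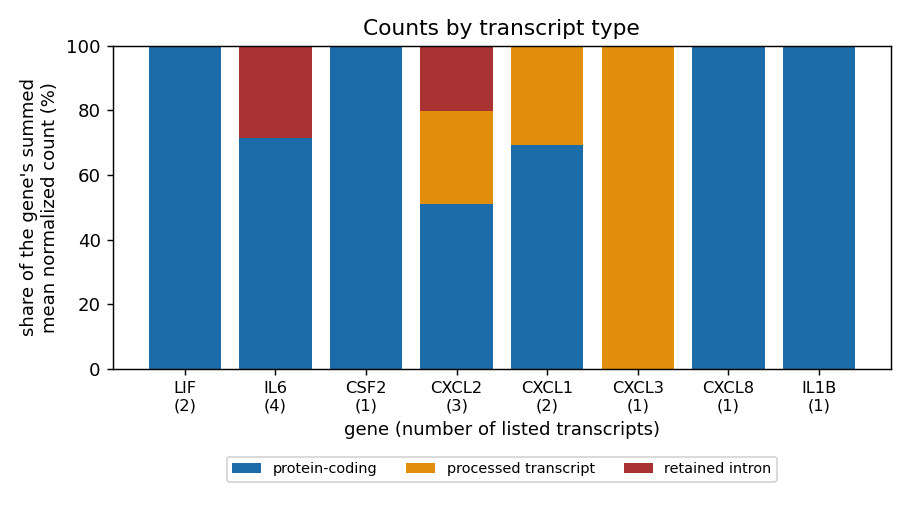
Share, in percent, of each gene's summed mean normalized count that lay in protein-coding, processed and retained-intron transcripts, 1 bar per gene in the order of the gene totals, with the number of listed transcripts below its name. The listed transcripts of LIF, CSF2, CXCL8 and IL1B are all protein-coding. IL6 has 28.4% in retained-intron transcripts, and CXCL3 is listed by 1 processed transcript alone, at 13.7.

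The antisense gene IL6-AS1, named here after its value was seen, had 1 listed transcript at 7.82. The libraries were made with a kit that keeps the strand, by the study's methods. Whether the counting used it is not given in the sources used here, so reads of IL6 and of an overlapping antisense RNA may not be told apart.

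The ligands were set beside other genes of their pathways. Of 28 other cytokines, chemokines and the prostaglandin synthase gene PTGS2, 17 were listed, with a median total of 33.4, near the 44.9 of the members. The largest totals were those of CSF1 (14575), the macrophage growth factor, and of IL11 (1759) and CLCF1 (1475), which like IL6 and LIF belong to the IL-6 family. The 11 not listed were CXCL6, CXCL10, CXCL11, CXCL12, CCL2, CCL7, CCL8, IL16, IL33, TNF and TSLP. Of these 28 genes, 60.7% were listed, and of the 10 members 80%.

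Receptors were listed for some ligands and not for others. Of 10 receptor genes, 7 were listed, and CXCR1, CXCR2 and CSF2RB were not, so neither receptor of the neutrophil-attracting chemokines had a row. The largest totals were those of IL6ST (4770), LIFR (1549), which pairs with gp130 to bind LIF, and CSF2RA (816), the binding chain of the GM-CSF receptor. IL6R, which binds IL-6, had 46.6, IL1R1 had 230, IL1RAP had 141 and CCR6 had 5.29. Both chains of the LIF receptor lay above most genes, IL6ST above 93.8% and LIFR above 80.5%, as did LIF itself.

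Downstream and upstream genes were all listed. All 9 genes of IL-6 family signalling had rows, with a median total of 2800, led by STAT3 (4973), TYK2 (4856) and JAK1 (4266). All 16 genes of the NF-κB and AP-1 list had rows, with a median of 1794, led by the AP-1 subunits JUN (14801) and FOSL1 (13059) and the NF-κB subunit RELA (4193). All 13 factors of cytokine mRNA decay and stability had rows, with a median of 1488, led by KHSRP (12625), CNOT1 (5451), the scaffold of a deadenylase complex, and ZFP36L1 (5176). Of the members, LIF alone had a total above 1488. The lists were not matched to the members by number or length of listed transcripts, with which a total grows.

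**Figure D4:**
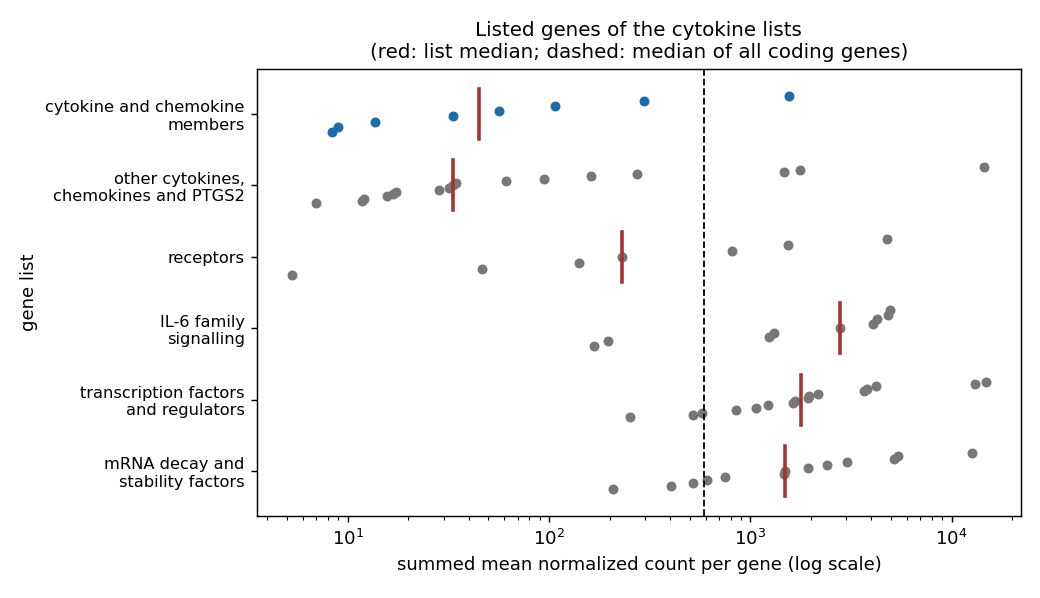
Summed mean normalized count per gene, on a log scale, for the listed genes of each list, 1 point per gene, with the list's median as a red bar and the median of all coding genes (588) as a dashed line. The members (blue) and the other cytokines lie mostly to the left of the dashed line, with medians of 44.9 and 33.4, and the signalling, transcription and mRNA decay lists mostly to its right. The lists are not matched by number or length of listed transcripts.

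The libraries as a whole were checked against the cell line and the construct. VIM, AXL, FN1 and CD44, which mesenchymal breast cancer cells express, had totals from 14306 to 80785. ESR1, PGR, CDH1 and ERBB2 had been taken as genes that should be low. ESR1 and PGR were not listed and CDH1 had 10.0, but ERBB2 had 4303, above 92.9% of all genes. Of 4 immune cell markers, CD3E was not listed, PTPRC had 3.81, CD14 had 138 and CD68 had 2463, above 87.2% of all genes. The check was thus met only in part. YTHDC1 had a total of 55488, above 99.8% of all genes. This total does not tell RNA of the construct from that of the cells' own gene, and it has no control without the construct.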

How the data were processed

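The 2 IP and 2 input RIP-seq libraries were grouped by their titles. The authors mapped reads with STAR (2.7.2b) and estimated reads per transcript with RSEM (1.2.31) on a GRCh38 transcriptome, removed transcripts with few reads, corrected batch effects with RUVSeq and ran DESeq2. The versions are from the submitters' processing notes. The deposited signal column is the authors' mean normalized count over all 4 libraries. The deposited log2 fold change, its standard error, the p-value and the adjusted p-value are the authors' own comparison and were not used. Depth per library is unknown, so intervals and tests on libraries were not possible.

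Gene totals were sums of the mean normalized counts of all transcripts with the same gene identifier. For the pathway lists and the genes that check the cell line, identifiers with the same gene name were added together. Shares are of that total, and percentiles give the share of genes with a lower total. Coding genes are those of protein-coding gene type. Alternatives were protein-coding transcripts alone, minimum mean normalized counts of 10 and 100, the most abundant transcript in place of the total, and ranks among genes with a protein-coding transcript. The planned test of IP against input on counts per library, with its alternatives, was not run. Positions and promoters came from RefSeq (GRCh38.p14), matched by symbol (for a gene with several promoters, the first), and promoters were aligned globally with biopython 1.88. Python 3.11.15, numpy 2.4.6, pandas 2.3.3 and matplotlib 3.10.9 were used. Sums, shares and percentiles were tested on simulated data.

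Named genes were all 10 members, the 3 genes with the largest totals of each pathway list, and genes of these lists without a row. Other receptors, IL6-AS1 and the genes that check the cell line are named besides. Members and lists were chosen with earlier results of these data known. A planned marker is not reported here.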

Additional observations from a re-analysis of the deposited data

How the results depend on the processing

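No paired analysis was possible because the table holds 1 mean over all 4 libraries and no value per library, and leaving out a replicate, another normalization and DESeq2 were not run for the same reason. With a minimum mean normalized count of 10, 12 of the 15 transcripts and 6 of the 8 genes were left (CXCL8, IL1B and IL6-208 dropped out), and the share of protein-coding transcripts in the members' sum was 93.7%. With a minimum of 100, 4 transcripts of 3 genes were left, those of LIF, CSF2 and IL6-202. With protein-coding transcripts alone, the total of IL6 was 212, with 67.7% in IL6-202, that of CXCL2 was 28.8 and that of CXCL1 was 23.1, CXCL3 had no value, and LIF, CSF2, CXCL8 and IL1B did not move. With the most abundant transcript of each gene in place of the total, the order of the 8 genes was the same and the percentiles moved by at most 5.44 points. Set against the totals of genes with a protein-coding transcript, a set that does not hold CXCL3 itself, every percentile was lower, by up to 20.5 points. Without values per library, no difference between 2 members can be set against replicate error, and the members with fewest reads are the least certain.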
